A study of Rattus norvegicus with 6 samples.

Results

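Nptx1, Nptxr and Syndig1 encode proteins that hold AMPA-type glutamate receptors (AMPARs) at excitatory synapses, and their mRNA was followed in purified retinal ganglion cell neurons (RGCs). They are 3 of the 14217 genes that the array annotation names, and every probe set with one of these symbols was taken, which gave 4 of 31042: 1 for Nptx1, 1 for Syndig1 and 2 for Nptxr. Each probe set reads 1 transcript with several short probes. The genes were chosen by their values in the contrasts of Gpc4 with Alone and with TSP1 on these arrays, so their differences between groups are descriptions and carry no test. No probe set of the annotation used here is named Nptx2, and that gene was not analysed here.

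The study asked which mRNAs change in RGCs given soluble glypican 4 (Gpc4), which induces active synapses, or thrombospondin 1 (TSP1), which induces silent ones. RGCs came from retinas of postnatal day 6 rats according to the labels, or days 5 to 7 of Sprague Dawley pups of both sexes in the methods, and were grown for 12 days before treatment in medium with BDNF and CNTF, and per the methods with forskolin, which all groups received. The groups were RGCs without added protein (Alone), RGCs with Gpc4 and RGCs with TSP1, each protein for 12 hours, with 2 arrays in each group, 1 from each of 2 cultures. Each array carried RNA of 2 pooled wells. The Gpc4 was a His-tagged protein purified from the medium of human embryonic kidney (HEK293) cells, the TSP1 was recombinant mouse protein, and no array received another protein made as the Gpc4 was. The values used are on the log2 scale, as RMA, the authors' normalization between arrays, gave them.

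Neuronal pentraxins are secreted or membrane-anchored proteins that assemble into larger complexes, bind the extracellular part of AMPARs and gather them into clusters. NP1, the product of Nptx1, is secreted, largely from axons. NPR, the product of Nptxr, spans the membrane and can anchor the complexes until a protease releases it. SynDIG1, the product of Syndig1, is a transmembrane protein of the dendrite that associates with AMPARs and takes part in the maturation of excitatory synapses.

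The promoter of Syndig1 is shown because the promoter reference used here holds this gene and holds neither Nptx1 nor Nptxr. The sequence is the 250 bases before the transcription start in RefSeq, build GRCr8, at chr3:158492040-158492289 on the plus strand, written 5′ to 3′, with capitals marking the matches to GGCGCC and GGAGCC, which are letters that BMP-regulated SMAD proteins are known to bind.

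Syndig1: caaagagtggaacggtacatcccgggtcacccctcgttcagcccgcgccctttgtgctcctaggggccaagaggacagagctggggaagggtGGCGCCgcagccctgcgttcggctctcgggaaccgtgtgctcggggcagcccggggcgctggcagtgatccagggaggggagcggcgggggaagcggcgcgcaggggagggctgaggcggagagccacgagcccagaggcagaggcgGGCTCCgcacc

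GGCGCC begins 158 bases before the start and occurs in 8.69% of 33469 promoter windows of this length, and GGAGCC, read here on the minus strand as GGCTCC, begins 11 bases before it and occurs in 23.0%. Letters searched on both strands without a match were TATAAA of the TATA box (in 12.9% of the windows), TGACG of the cyclic AMP element (18.2%), GTCTG of the general SMAD element (42.9%) and GTCTGC, which contains it (12.9%), the E-box CANNTG (65.5%), the AP-1 element TGANTCA (6.34%) and the GC box GGGCGG (30.5%). G and C made up 72% of it, against a median of 51.2% over all windows. These matches describe the letters of the window and are not shown to be bound in RGCs.

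Nptx1 was higher with Gpc4 than in both other groups. Its log2 value was 11.32 and 11.29 on the Alone arrays, 12.18 and 12.19 on the Gpc4 arrays, and 11.40 and 11.05 on the TSP1 arrays, each pair in the order of culture 1 and culture 2. Both Gpc4 arrays lay above all 4 other arrays, while the TSP1 arrays fell on either side of the Alone pair. On the linear scale the group means were 2530 in Alone, 4656 with Gpc4 and 2411 with TSP1. The Gpc4 mean of 12.19 ± 0.01 (SD, n = 2) stood 0.88 above the Alone mean of 11.31 ± 0.02 (SD, n = 2) on the log2 scale, a 1.84-fold difference with a standard error of 0.12 in log2. This standard error and those below come from a fit to all arrays. The fit pools the spread over all groups, TSP1 included, and shares it among probe sets, so they do not follow from the SDs printed beside them. The 2 cultures gave 1.82-fold and 1.87-fold. In a bulk sample such as this, more mRNA per cell cannot be told apart from more of the cells that make it.

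Syndig1 was also higher with Gpc4 than in both other groups. Its log2 value was 6.76 and 6.87 in Alone, 7.72 and 7.59 with Gpc4, and 6.65 and 6.82 with TSP1. Again both Gpc4 arrays were above every other array, and the Alone and TSP1 arrays overlapped. The Gpc4 mean of 7.66 ± 0.09 (SD, n = 2) was 0.84 above the Alone mean of 6.82 ± 0.08 (SD, n = 2) on the log2 scale, or 1.79-fold, with a standard error of 0.10 in log2. The fold was 1.95 in culture 1 and 1.65 in culture 2, a wider spread than for Nptx1. Its Alone values stood above the median of every array (5.96 to 5.99), but without a detection call no value can be said to be above background.

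Nptxr was measured by 2 probe sets, 1 above and 1 below the array medians. Probe set 1376362_at had a log2 value of 10.72 on both Alone arrays, 10.74 and 10.75 with Gpc4, and 10.73 and 10.79 with TSP1. The 6 values spanned 0.07 on the log2 scale, and the Gpc4 mean lay 0.03 above the Alone mean (standard error 0.08). The Gpc4 arrays did not overlap the Alone arrays by 0.02, which is little more than the rounding of the deposited values to 2 decimals. Probe set 1387481_at had 4.74 and 4.46 in Alone, 4.46 and 4.26 with Gpc4, and 4.19 and 4.23 with TSP1. All 6 of these lie below the array medians, and the groups Alone and Gpc4 met at 4.46. Its Gpc4 minus Alone difference was -0.24, opposite in sign to that of 1376362_at, and with 1 array left out at a time it ran from -0.38 to -0.10.

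**Figure D1:**
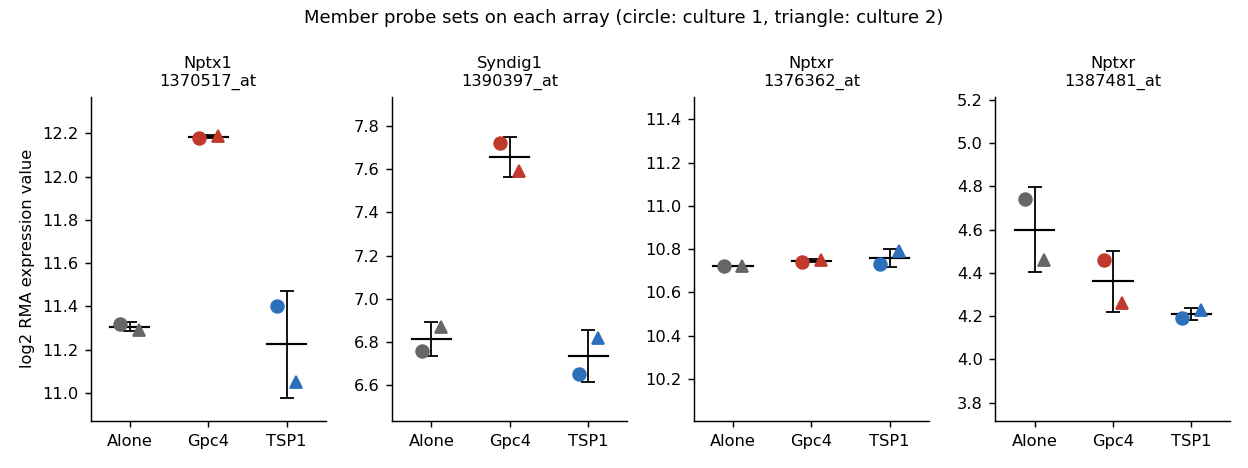
Log2 RMA expression value (y axis) of the 4 probe sets of Nptx1, Syndig1 and Nptxr in Alone, Gpc4 and TSP1 (x axis). Circles are culture 1, triangles culture 2, horizontal lines are group means with their SDs (n = 2) as bars, and every panel spans the same height in log2. Nptx1 and Syndig1 stand higher on both Gpc4 arrays, and Nptxr 1376362_at stays between 10.72 and 10.79.

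Of the 4 probe sets, 3 did not overlap between Gpc4 and Alone with higher values in Gpc4, against 16% of all probe sets. Both Gpc4 arrays lay above all 4 Alone and TSP1 arrays for 2 of the 4, Nptx1 and Syndig1, against 6.06% of all probe sets. Since the genes were chosen for this contrast, nothing is read from these counts. For Nptx1 the lowest Gpc4 array was 0.78 above the highest other array on the log2 scale, which is the 20th largest such gap among 31042 probe sets. For Syndig1 this gap was 0.72, the 25th largest.

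The differences were then set beside probe sets of similar level, taken as those whose mean log2 value over the 6 arrays lay within 0.5 of the gene's own. Nptx1 had the highest Gpc4 minus Alone difference of 726 such probe sets, and it was the highest of them in culture 1 (0.86) and in culture 2 (0.90) as well. The next below it was Slc20a1, a phosphate transporter, at 0.715, and 95% of the 726 differed by no more than 0.21 in size. With a window of 0.25 Nptx1 was the highest of 353, and with a window of 1 it was the third of 1596. Its rank in this window is a description of the arrays, with no test.

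Syndig1 had the 5th highest difference of 3280 probe sets within 0.5 of its level. Just above it stood Nr3c1, the glucocorticoid receptor, at 0.955, and just below it Kdr, a receptor for VEGF, at 0.83. At this lower level 95% of probe sets differed by no more than 0.36 in size, more than at the level of Nptx1. Syndig1 ranked sixth in culture 1 (0.96) and 18th in culture 2 (0.72). With a window of 0.25 it was the 4th of 1649, and with a window of 1 the 21st of 6667.

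Nptxr did not stand out at the level of 1376362_at. For 1376362_at 16.9% of 1383 probe sets of similar level had a smaller difference in size between Gpc4 and Alone, and Eny2 and Cetn2, which stood next to it, also differed by 0.03. For the dim 1387481_at, 90.8% of 6402 probe sets had a smaller difference in size, with Krt18 and Gja5 next to it at the same -0.24.

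**Figure D2:**
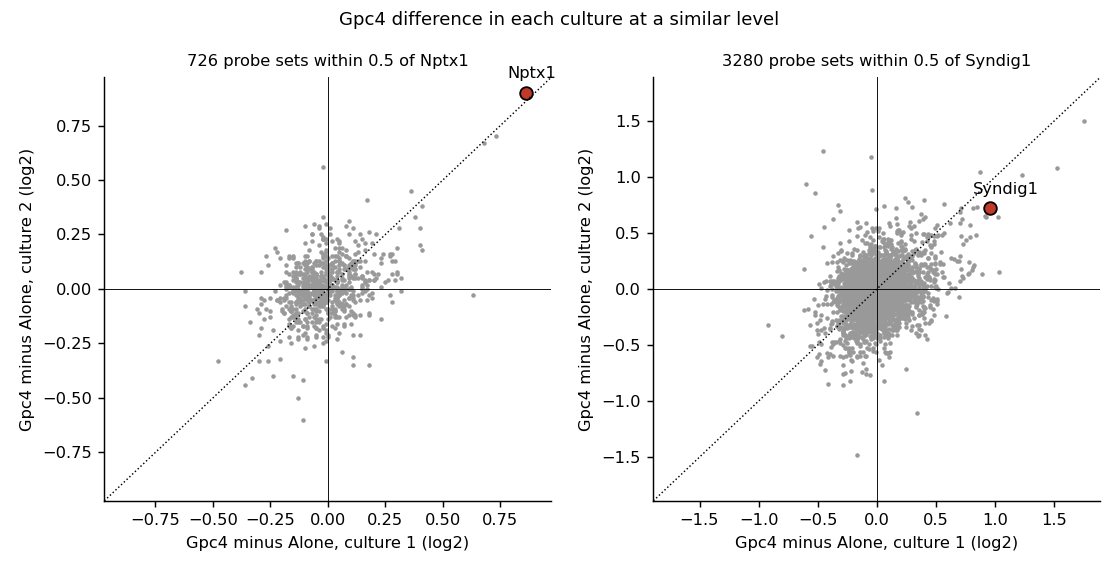
Gpc4 minus Alone log2 difference in culture 1 (x axis) and culture 2 (y axis) for the 726 probe sets within 0.5 of the level of Nptx1 (left) and the 3280 within 0.5 of Syndig1 (right). Grey points are single probe sets, the red point is the named gene and the dotted line marks equal differences. Nptx1 lies at 0.86 and 0.90, beyond all others on both axes, and Syndig1 at 0.96 and 0.72 among the highest.

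With TSP1, Nptx1, Syndig1 and Nptxr 1376362_at stood closer to Alone than Nptx1 and Syndig1 did with Gpc4, and Nptxr 1387481_at was lower than in Alone. The TSP1 arrays took part in the choice of the genes and the Alone arrays are shared with the Gpc4 comparison, so these differences too are given with no test.

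For Nptx1 the TSP1 mean of 11.23 ± 0.25 (SD, n = 2) differed from Alone by -0.08 on the log2 scale (standard error 0.12). The TSP1 arrays differed from each other by 0.35, the 8th largest such difference among the 726 probe sets of similar level, where the median was 0.08. The difference from Alone was 0.08 in culture 1 and -0.24 in culture 2. It was 0.095 without TSP1 replicate 2. The order of the Nptx1 levels was therefore Gpc4, then Alone and TSP1, and the last pair did not differ beyond the spread of the TSP1 arrays.

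For Syndig1 the TSP1 mean was 6.74 ± 0.12 (SD, n = 2), also -0.08 from Alone (standard error 0.10). Both cultures had lower values with TSP1, by -0.11 and -0.05, and without TSP1 replicate 1 the difference was 0.005. For Nptxr 1376362_at the TSP1 mean of 10.76 ± 0.04 (SD, n = 2) was 0.04 above Alone (standard error 0.08). The 1387481_at probe set of Nptxr, below the array medians, differed more. Both of its TSP1 arrays were below both Alone arrays, with a log2 difference of -0.39 (standard error 0.12, and -0.55 and -0.23 in the 2 cultures). This was larger in size than that of 98.7% of 6402 probe sets of similar level.

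Side by side, the Gpc4 and TSP1 arrays of 1 culture differed by 0.78 and 1.14 for Nptx1, by 1.07 and 0.77 for Syndig1, and by 0.01 and -0.04 for Nptxr 1376362_at on the log2 scale (culture 1, then culture 2). These use the same Gpc4 arrays as above, and no test is given. The mean Gpc4 value was 1.95-fold that with TSP1 for Nptx1 and 1.89-fold for Syndig1. Some markers of other cell types also differed between these groups, as given with the markers.

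**Figure D3:**
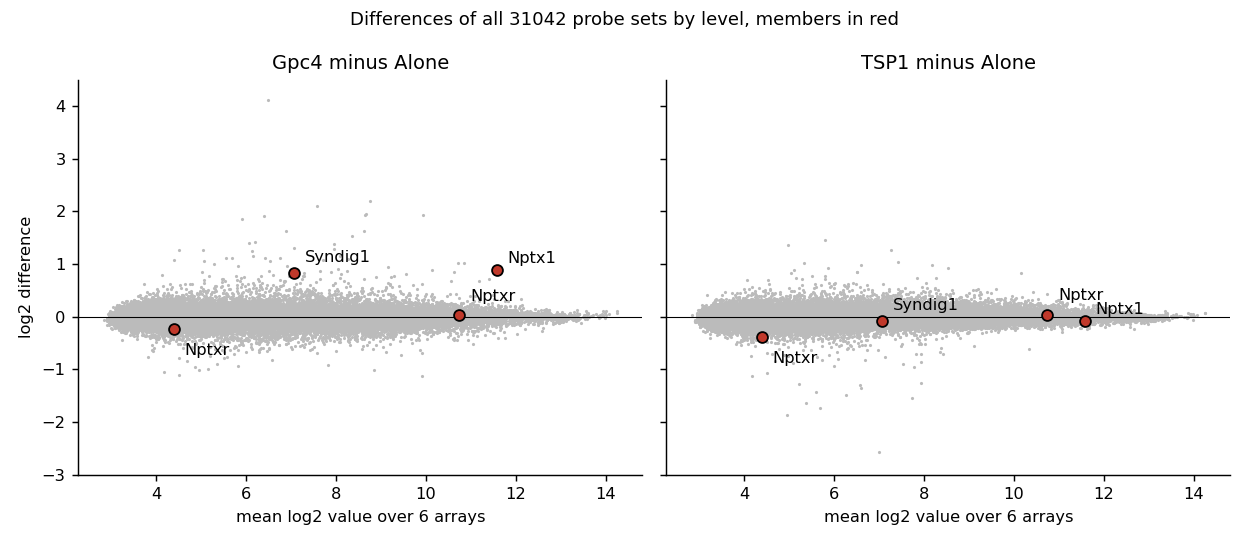
Log2 difference (y axis) against the mean log2 value over 6 arrays (x axis) for all 31042 probe sets, as Gpc4 minus Alone (left) and TSP1 minus Alone (right), with the 4 probe sets of Nptx1, Syndig1 and Nptxr in red. With Gpc4, Nptx1 (0.88) and Syndig1 (0.84) stand above the band of probe sets at their level, and with TSP1 both lie at -0.08.

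The other genes of the AMPAR pathway were taken from 6 lists, with 1 probe set per gene, the one of highest mean, and without Nptx1, Nptxr and Syndig1. Of 78 listed genes 63 have a named probe set. They were tested with limma, which fits each probe set and shares the estimate of the spread among them, on all 6 arrays (two-sided, threshold of a Benjamini-Hochberg adjusted p under 0.05). The lists were chosen with earlier results of these arrays known, so a call within them is not independent evidence. With Gpc4 against Alone none of the 63 passed, against 0.0838% of all probe sets (limma, 10 of the 63 and 2136 of all at an unadjusted p under 0.05). Their median log2 difference was -0.04, beside -0.005 over all probe sets. With TSP1 against Alone none passed, against 0% of all probe sets (limma, 1 of the 63 and 1367 of all at an unadjusted p under 0.05), and none did with the replicate number as a block, against 0.0129%. Their median with TSP1 was -0.015. With Gpc4 against TSP1 none passed, against 0.0612% of all probe sets (3 of the 63 and 1401 of all at an unadjusted p under 0.05).

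The nearest to the threshold was Adam17, which encodes TACE, a membrane protease that is known to cleave NPR. Its log2 value was 6.55 and 6.50 in Alone, 7.25 and 7.19 with Gpc4, and 6.48 and 6.54 with TSP1. Both Gpc4 arrays stood above the other 4, as for Nptx1 and Syndig1. The Gpc4 minus Alone difference was 0.695 on the log2 scale (standard error 0.09, adjusted p = 0.053 from limma), and it was 0.70 in culture 1 and 0.69 in culture 2. With the replicate block, which takes out the difference between the cultures, its adjusted p was 0.033, and it was then the 1 gene of the 63 past the threshold, against 0.184% of all probe sets called higher. The limit on calls within the lists holds for this call. Against TSP1 the difference was 0.71 (adjusted p = 0.058 from limma), and with the replicate block its adjusted p was 0.026, again as the 1 gene of the 63, against 0.226% of all probe sets called higher.

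Among the relatives of the members, Crp and Apcs, pentraxins of the acute phase and of serum, had log2 values of 4.29 to 5.03 on all arrays, below the array medians, and Gpc4 minus Alone differences of -0.115 and -0.075. The relatives of Syndig1 did not have its pattern. Syndig1l, Prrt1 and Prrt2 differed between Gpc4 and Alone by -0.005, 0.10 and -0.24, and none passed (adjusted p from 0.68 to 0.99 from limma). The further probe sets gave -0.07 and 0.06 for Prrt1 and -0.07 for Prrt2. Prrt2, whose product acts in presynaptic release and resembles SynDIG1 in sequence, had 8.79 and 8.73 in Alone and 8.55 and 8.49 with Gpc4.

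The genes of the receptor that these factors gather showed no call. Gria1, Gria2, Gria3 and Gria4, which encode the AMPAR subunits, had Gpc4 minus Alone differences of 0.015, -0.25, -0.12 and 0.015 on the log2 scale (adjusted p from 0.72 to 0.99 from limma). Gria1, for the subunit GluA1, had 7.16 and 7.33 in Alone and 7.23 and 7.29 with Gpc4, values that overlap. The further probe sets of Gria4 gave -0.38 and -0.12, and the further ones of Gria2 and Gria3 had the sign of the first. None of 14 auxiliary protein genes on the list passed (limma, 3 at an unadjusted p under 0.05, beside 6.88% of all probe sets), and their median was -0.06. The most negative was Cacng3, which encodes a TARP that carries AMPARs to the membrane, with 7.62 and 7.43 in Alone, 7.07 and 6.92 with Gpc4 and 7.06 and 7.35 with TSP1. Its Gpc4 minus Alone difference was -0.53 (limma's adjusted p = 0.46, and 0.29 with the block). Cacng2, for stargazin, had -0.33, and -0.04 on its other probe set. Cacng5 had 0.26 at values below the array medians.

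Of 20 genes of AMPAR scaffolds and traffic none passed with Gpc4, the median difference was -0.01 and the range -0.265 to 0.095. Among these were Dlg4, which encodes PSD95 (-0.01), Grip1 (-0.08), Pick1 (-0.04) and Nsf (0), all known to bind AMPARs or their auxiliary proteins. Of 20 synapse organizers and pentraxin partners, Adam17 included, none passed and the median was -0.06. Ptprd, Ptprs and Ptprf, receptor phosphatases of the presynaptic membrane, had -0.11, -0.14 and -0.135. Their further probe sets gave -0.24 and -0.05 for Ptprd, 0.01, -0.30 and -0.14 for Ptprs, and -0.12 for Ptprf. Lrfn1, an adhesion protein of excitatory synapses, had 0.32, and Cbln2, a secreted synaptic organizer, had -0.295 (adjusted p of 0.65 and 0.68 from limma).

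**Figure D4:**
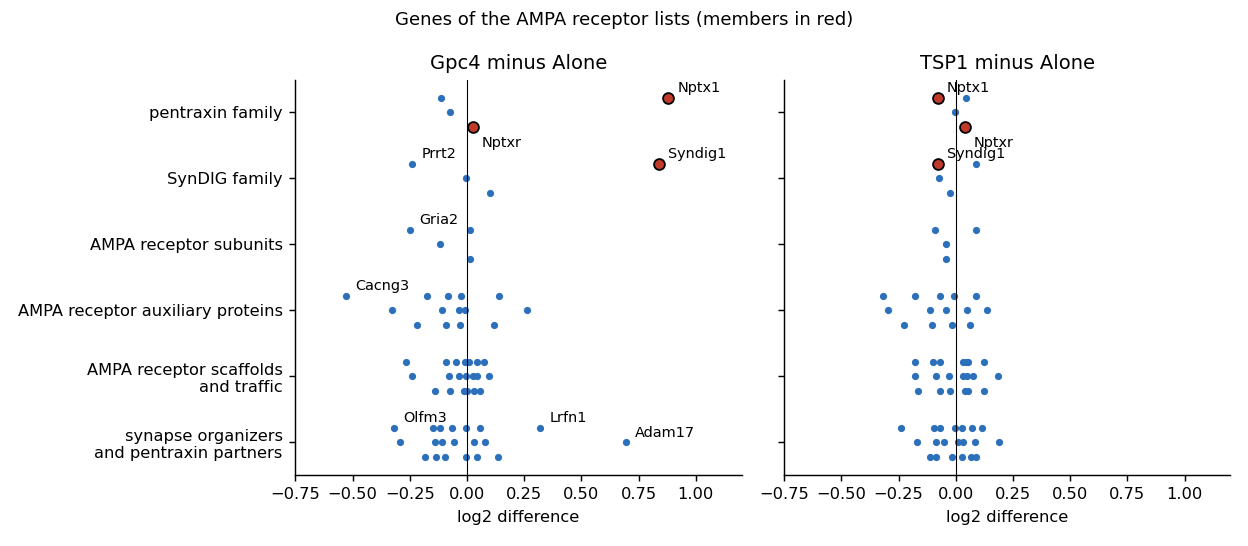
Log2 difference (x axis) of each measured gene of 6 AMPAR-related lists (rows) for Gpc4 minus Alone (left) and TSP1 minus Alone (right). Points are single genes, set at 3 heights in a row for legibility, with Nptx1, Nptxr and Syndig1 in red. With Gpc4, Nptx1 (0.88), Syndig1 (0.84) and Adam17 (0.695) lie apart on the right, and with TSP1 the 63 other genes lie between -0.32 and 0.19.

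The genes whose values over the 6 arrays most resembled those of Nptx1 and Syndig1 were ranked by Pearson's r among 1265 probe sets with a mean log2 value of at least 6 and a range of at least 0.5. The 6 points come from 3 groups and 2 cultures, so r is given as a description. Both genes were chosen for their values on the Gpc4 arrays, and the filter on range admits genes such as Id4 only through those arrays. A high r with genes raised by Gpc4 was therefore set by the choice, and nothing is read from its size. Nptx1 was most like Id4, an inhibitor of basic helix-loop-helix factors (r = 0.99), and then Disp3, Mtcl1, Spsb1, Lrrn2, Shisa8, Eeig1 and Trh (r from 0.97 to 0.98). This probe set of Id4 had 9.76 and 9.67 in Alone, 10.36 and 10.31 with Gpc4, and 9.78 and 9.63 with TSP1. It shared with Nptx1 the high Gpc4 arrays and a lower second TSP1 array, though its second Alone array was lower as well. The probe set of Id4 most like Syndig1 had 7.09 and 7.21 with TSP1, higher on the second array. Shisa8 encodes a protein of the Shisa family, to which auxiliary proteins of AMPARs belong. It had 8.08 and 7.79 in Alone, 8.79 and 8.81 with Gpc4, and 8.14 and 7.81 with TSP1, a Gpc4 minus Alone difference of 0.865. It was not on the lists above, so the count and median of the 14 auxiliary protein genes leave it out.

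Syndig1 was most like another probe set of Id4 (r = 0.99), and then Hey1, Id1, Adam17, Islr2, Avp, Disp3 and Id3 (r from 0.98 to 0.99). Hey1 is a repressor downstream of Notch and BMP signals, Id1 and Id3 are inhibitors of the same family as Id4, and Avp encodes the precursor of vasopressin. Their Gpc4 minus Alone differences ran from 0.53 for Hey1 to 2.20 for Id3, so the likeness is in shape and not in size. Id4 and Disp3 stood among the 8 for both genes. Nptx1 and Syndig1 correlated with each other at r = 0.93, and each stood lower in the ranking for the other (30th and 37th). Since both were chosen as high with Gpc4, this r follows from the choice and is no evidence of a link between them. Nptxr 1376362_at had r of -0.12 with Nptx1 and 0.12 with Syndig1.

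**Figure D5:**
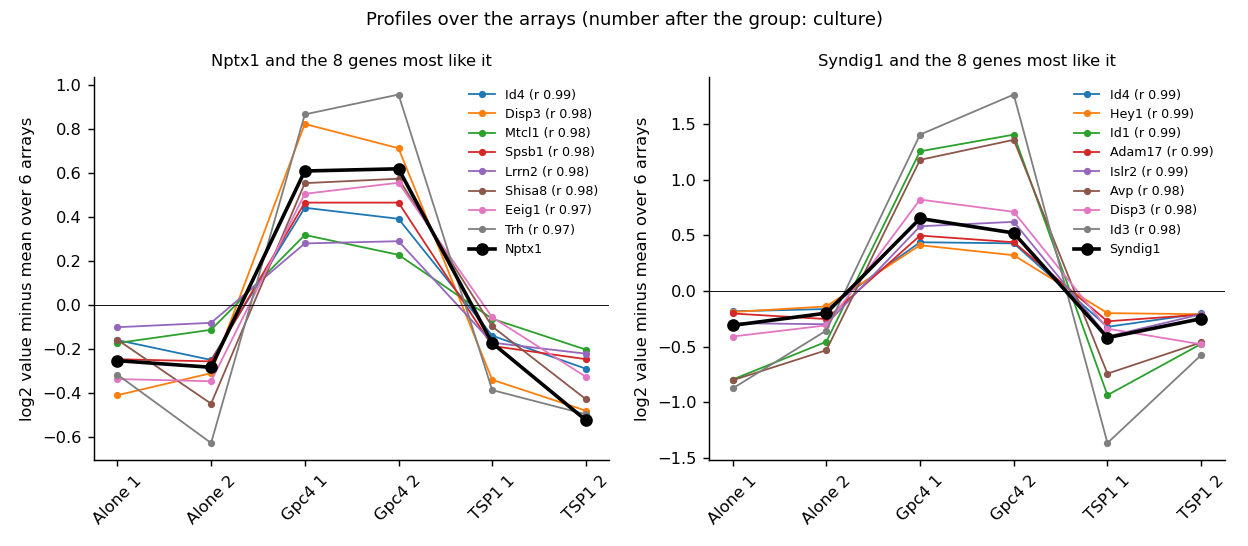
Log2 value minus the gene's mean over 6 arrays (y axis) on each array (x axis, group and culture number) for Nptx1 (left, black) and Syndig1 (right, black) and the 8 genes most like each (colours, Pearson's r in the legend, n = 6 arrays). Lines join the values of a gene, which are high on both Gpc4 arrays and low on the 4 others.

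The arrays carried the markers of RGCs. All 12 measured of 14 RGC markers had a mean above every array median, and their summed linear level was 80951 to 82333 in Alone, 81408 to 81523 with Gpc4 and 81244 to 81901 with TSP1. The 39 measured markers of other cell types held none past the threshold with Gpc4 against Alone, beside 0.0838% of all probe sets (limma, 4 at an unadjusted p under 0.05, beside 6.88% of all). The summed level of 8 astrocyte and Müller glia markers was 1192 to 1343 in Alone, 1576 to 1589 with Gpc4 and 1418 to 1493 with TSP1. Glul (Gpc4 minus Alone 0.395, and 0.18 and 0.08 on its other probe sets) and Slc1a3 (0.085) had means above the array medians, and Gfap lay below them (4.83 to 5.65). Glul, with a mean log2 value of 10.28 with Gpc4, made up most of the glial sum. Of the 8 differences 6 were above 0, and Aqp4 and Gjb6 had -0.115 and -0.135. The highest was 0.525 for Fgfr3, at 4.38 to 5.10, below the array medians, and its other probe set had 0.00. The summed level of 4 endothelial markers was 162 to 207 in Alone, 279 to 301 with Gpc4 and 156 to 157 with TSP1. Kdr (0.83, adjusted p = 0.27 from limma) was the only one above the array medians, and its other probe set had -0.02. Pecam1, at 3.27 to 3.72, Tek and Cldn5 had Gpc4 minus Alone differences of 0.22, 0.075 and -0.13. The glial and the endothelial sums were higher with Gpc4 than in Alone on every array, as were Nptx1 and Syndig1, and their part in the values of these genes was not tested. The sums of the other lists overlapped between Gpc4 and Alone, at 249 to 364 (oligodendrocyte and microglia), 465 to 828 (fibroblast), 485 to 505 (amacrine) and 115 to 120 (photoreceptor and bipolar) with Gpc4.

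Between Gpc4 and TSP1 the markers that differed most were Lum, Dcn and Pdgfra of the fibroblast list and Kdr of the endothelial list. The summed level of 6 fibroblast markers was 378 to 1010 in Alone, 465 to 828 with Gpc4 and 299 to 512 with TSP1. Lum and Dcn, matrix proteoglycans of fibroblasts, had Gpc4 minus TSP1 differences of 1.945 and 1.765 on the log2 scale, Pdgfra had 1.355 and Kdr had 1.13. The other probe set of Kdr had 0.06. Among the other fibroblast markers Col1a1, Col1a2 and Col3a1 had 0.055, -0.05 and -0.015. Among the other endothelial ones Pecam1, Tek and Cldn5 had -0.015, 0.115 and -0.02. None of the 39 markers passed for Gpc4 against TSP1, beside 0.0612% of all probe sets (limma, 9 at an unadjusted p under 0.05, beside 4.51% of all). With the replicate block Lum, Dcn and Kdr did, beside 0.226% of all probe sets called higher (limma, adjusted p of 0.0086 for Lum, 0.026 for Dcn and 0.017 for Kdr). Against Alone, Lum, Dcn and Pdgfra had TSP1 differences of -1.635, -1.49 and -1.35 (limma, adjusted p = 0.98 for each). In culture 1 and culture 2 these were -1.19 and -2.08 for Lum, -1.11 and -1.87 for Dcn, and -0.55 and -2.15 for Pdgfra. Their Alone arrays also differed between the cultures, at 4.68 and 6.95 for Lum, 5.59 and 7.75 for Dcn, and 6.32 and 7.77 for Pdgfra. Lum, Dcn and Kdr were higher with Gpc4 than with TSP1, as were Nptx1 and Syndig1, and their part in the values of these genes was not tested.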

How the data were processed

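The 6 arrays were Affymetrix rat expression arrays. Per the methods and labels, the authors processed them in Affymetrix Expression Console, whose version is not given in the sources used here. The values they deposited are log2 values from RMA, background-corrected, normalized between arrays, summarised per probe set and rounded to 2 decimals. No genome build is named for them. Of 31042 probe sets 20826 have 1 symbol in the platform annotation, 436 have several and 9780 none, and 20758 of the 20826 had the same symbol in RefSeq GRCr8.

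Groups came from the sample titles, and no array was left out. The deposited log2 values went into the fit as they were, with no filter on low values and no pseudocount. The fit was made with lmFit and eBayes of limma 3.58.1 under R 4.3.3 (6 arrays, 1 mean per group, 3 residual degrees of freedom), p-values were adjusted across the whole table by the method of Benjamini and Hochberg, and the script was tested on simulated data. Arrays of 1 group differed by a median of 0.10 to 0.11 in log2, and their small number limits the precision. Without the replicate block the p-values rest on the spread within groups, between these 2 cultures. With the block they rest on what remains once the difference between the cultures is taken out. In both fits limma shares the estimate of the spread among probe sets. The methods state 2 cultures, and after subtraction of the group means arrays with the same number correlated at 0.29 (Alone and Gpc4), 0.35 (Alone and TSP1) and 0.37 (Gpc4 and TSP1), so the replicate number was taken to pair the arrays and was run as a block.

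The members and gene lists were chosen with earlier results of these data known. A limma test of the members with TSP1 against Alone was planned and is not given, since the TSP1 and Alone arrays took part in the choice. Named genes were the members, genes of the lists, the next probe sets in rank at a similar level, and the 8 genes most like Nptx1 and Syndig1. Alternatives were median centring, quantile normalization, a mean of at least 6, the replicate block, only the groups compared, a trended variance, level windows of 0.25 and 1, any probe set of a gene, an adjusted p under 0.10, and leaving out each array. The promoter came from RefSeq. Python 3.11.15 with matplotlib 3.10.9 drew the figures.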

Additional observations from a re-analysis of the deposited data

Results flagged for a closer look

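The TSP1 minus Alone difference of Nptx1 had opposite signs in the 2 cultures. In log2 value it was 0.08 in culture 1 and -0.24 in culture 2. Each is a difference of 1 array from 1 array, and the difference between the cultures was not tested. Among 726 probe sets of similar level, the TSP1 minus Alone difference of Nptx1 was the 8th largest in size in culture 2. In culture 1 it was only the 406th.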

How the results depend on the processing

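The Gpc4 minus Alone difference stayed between 0.865 and 0.895 in log2 for Nptx1 and between 0.775 and 0.905 for Syndig1 under the alternatives run. For Nptxr 1376362_at quantile normalization gave 0.0367 in place of 0.025. Leaving out 1 array at a time put the TSP1 minus Alone difference of Nptx1 between -0.255 and 0.095 and that of Syndig1 between -0.165 and 0.005, with no test. The count of 0 list genes called became 1, Adam17, for Gpc4 minus Alone with quantile normalization, when probe sets with a mean under 6 were left out, with the replicate block and at an adjusted p under 0.10, and 1, again Adam17, for Gpc4 minus TSP1 with a mean of at least 6, with the replicate block and at an adjusted p under 0.10. The replicate block changed no other call in the AMPAR lists. The cause of these shifts was not tested. The dim Nptxr 1387481_at had no value at a mean of at least 6.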
